A study of Mus musculus with 48 samples.

Results

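A set of 10 genes of granulocytes and their marrow precursors was followed in the spinal cord of Tia1 knockout (KO) and wild type (WT) mice: Chil3, Mmp8, Mmp9, Ngp, Camp, Ltf, S100a8, S100a9, Mpo and Elane. Every probe set annotated to one of these symbols was taken, which gave 11 of the 45037 probe sets tested, with 2 for Mmp9. The genes were chosen from their measured difference between KO and WT spinal cord at 3 months, so that comparison is given as a description only. The question was whether cells of marrow or blood had come with the 3-month KO spinal cords. Expression was measured on 48 Affymetrix arrays in spinal cord, cerebellum, midbrain and liver, and 12 of the arrays were from spinal cord. Each of the 16 groups held 3 mice of 1 genotype, tissue and age, and the sample labels give the ages as 3 and 6 months. TIA1 is an RNA-binding protein that seeds stress granules. The KO mice were homozygous for a recombination of exon 4 that leaves a shortened Tia1 mRNA, and the KO and WT mice were of C57BL6/J background. By the study's methods the WT mice came from a separate supplier, while the series' design text calls them littermates. The whole dissected tissue was extracted, so fewer cells of a type and less RNA per cell cannot be told apart.

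Granulocytes are made in the bone marrow, where maturing precursors fill their granules in sequence. Primary granules come first and hold myeloperoxidase (Mpo) and neutrophil elastase (Elane). Secondary and tertiary granules follow with lactoferrin (Ltf), the cathelicidin precursor (Camp), neutrophilic granule protein (Ngp) and the collagenase and gelatinase Mmp8 and Mmp9. S100a8 and S100a9 encode the subunits of calprotectin, an abundant cytoplasmic protein of neutrophils and monocytes, and Chil3 encodes a chitinase-like lectin of myeloid cells. The transcripts of granule proteins are most abundant in the marrow precursors and decline as the cells mature and leave for the blood. The spinal cord lies inside the vertebral canal, next to vertebral marrow and wrapped in meninges and vessels, whereas cerebellum and midbrain lie inside the skull.

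The promoters of 9 of the 10 genes were matched in a RefSeq table (build GRCm38.p6), and 7 are printed because within 150 bases of the start they show the letters of 2 factors known from myeloid cells. These bases are given on the gene's own strand, and capitals mark AGGAAGT, the core bound by PU.1, or TTNCNNAA, the core bound by C/EBP factors, in either direction. In Chil3 a match of one motif directly follows a match of the other, so their capitals run together.
Chil3 (chr3:106167565-106167714, minus strand): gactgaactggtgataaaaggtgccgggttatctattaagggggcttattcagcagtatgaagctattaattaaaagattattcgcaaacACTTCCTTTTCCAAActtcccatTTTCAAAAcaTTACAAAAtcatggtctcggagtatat
Mmp8 (chr9:7558279-7558428, plus strand): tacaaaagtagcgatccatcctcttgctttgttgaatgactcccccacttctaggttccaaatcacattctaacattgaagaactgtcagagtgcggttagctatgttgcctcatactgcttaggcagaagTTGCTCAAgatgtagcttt
Ngp (chr9:110419658-110419807, plus strand): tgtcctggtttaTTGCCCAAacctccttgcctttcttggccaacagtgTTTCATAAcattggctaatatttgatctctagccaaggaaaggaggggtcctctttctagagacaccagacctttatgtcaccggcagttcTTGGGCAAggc
Ltf (chr9:111019142-111019291, plus strand): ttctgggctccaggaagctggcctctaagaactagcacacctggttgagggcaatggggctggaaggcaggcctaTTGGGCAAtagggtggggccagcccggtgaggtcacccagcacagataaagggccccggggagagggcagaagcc
S100a8 (chr3:90668921-90669070, plus strand): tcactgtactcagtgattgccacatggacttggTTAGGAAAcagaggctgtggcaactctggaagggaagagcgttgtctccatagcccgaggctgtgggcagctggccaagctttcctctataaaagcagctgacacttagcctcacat
S100a9 (chr3:90695722-90695871, minus strand): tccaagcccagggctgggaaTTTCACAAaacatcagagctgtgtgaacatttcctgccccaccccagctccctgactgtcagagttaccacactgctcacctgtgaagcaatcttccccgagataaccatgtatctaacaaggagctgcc
Elane (chr10:79886162-79886311, plus strand): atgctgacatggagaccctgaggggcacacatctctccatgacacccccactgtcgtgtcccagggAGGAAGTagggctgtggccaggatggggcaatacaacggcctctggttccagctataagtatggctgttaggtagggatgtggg

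In the 250 bases before the start, AGGAAGT or its reverse complement was found in 5 of the 9 member promoters, against 7.69% of 32851 mouse promoters. The letters TTNCNNAA were in 6 of 9 member promoters, against 36.8% of all. The GATA core AGATAA was in 3 of 9 against 9.99%, on both strands, and TATAAA, searched on the gene's strand only, was in 1 of 9 (S100a8) against 7.59%. Chil3 held 3 matches to the C/EBP core and 1 to the PU.1 core within 60 bases of its start. A match is a run of letters and no evidence of binding. S100a8 and S100a9 were neighbours on chromosome 3, with 0 protein-coding genes between them in the RefSeq order. Camp, Ngp and Ltf lay on chromosome 9, with 8 protein-coding genes between Camp and Ngp and 20 between Ngp and Ltf.

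Correlations within groups were 0.985 to 0.998, each of 5 spinal cord markers such as Hoxc8 was higher in every spinal cord array than in any other array, and the Tia1 probe set of exon 4 was 7.49 to 7.70 in WT and 5.14 to 5.52 in KO spinal cords (log2). In liver the same probe set was dimmer and the genotypes overlapped over both ages, at 5.18 to 5.63 in WT and 4.56 to 5.26 in KO. En1 in midbrain and Ttr in liver did not stand above every array of the other tissues. One array stood apart: the spinal cord of WT mouse 3 at 3 months carried skeletal muscle transcripts at a summed linear level of 12094 over 10 muscle genes, against 88.9 and 154 in the other WT mice of that age. The 3-month differences of the members are therefore also given without it. The 3 KO cords of that age had muscle sums of 622, 1266 and 3307.

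The granule genes were higher in the 3-month KO spinal cords than in WT cords of the same age, by up to 5.18-fold for Chil3. All values below are log2 expression values, given for WT mice 1, 2 and 3 and then for KO mice 122970, 122972 and 122973, and levels of different probe sets are not comparable. At 3 months Chil3 was at 5.19, 4.56 and 6.27 in WT and 7.53, 7.37 and 8.24 in KO cords, a difference of 2.37. Every KO value lay above every WT value, with a gap of 1.10 between the nearest mice. Chil3 had the second largest KO minus WT difference of all 45037 probe sets.

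Of the secondary and tertiary granule genes, Mmp8, the neutrophil collagenase, was at 3.10, 3.02 and 3.21 in WT and 5.09, 5.03 and 5.27 in KO cords, a difference of 2.02. Its values were close together within each genotype, near the array background in every WT cord and clear of it in every KO cord, so no exact fold is given. Ngp was at 6.86, 6.36 and 7.92 in WT and 8.84, 8.47 and 9.35 in KO cords (3.58-fold). Camp was at 6.14, 5.38 and 7.05 in WT and 8.03, 7.48 and 8.58 in KO cords (3.59-fold). For Ltf, the iron-binding lactoferrin, the values were 5.30, 4.56 and 6.14 in WT and 7.21, 6.54 and 7.55 in KO cords (3.41-fold). In all 3 genes WT mouse 3 was the highest WT value, KO mouse 122973 the highest of all, and the genotypes did not overlap. Mmp9, the gelatinase of tertiary granules, differed less. Its dimmer probe set was at 4.16, 3.53 and 4.26 in WT and 4.75, 4.63 and 4.49 in KO cords (1.56-fold). Its brighter probe set was at 4.74, 4.73 and 5.49 in WT and 5.48, 5.60 and 5.58 in KO cords (1.48-fold), and here WT mouse 3 lay inside the KO range.

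The calprotectin genes, whose proteins pair with each other, differed by similar amounts. S100a8 was at 8.31, 7.57 and 9.09 in WT and 9.94, 9.55 and 10.36 in KO cords (3.08-fold). S100a9 was at 8.53, 7.89 and 9.52 in WT and 10.56, 10.08 and 10.71 in KO cords (3.48-fold). Neither gene overlapped between the genotypes. The primary granule genes showed less. Mpo was at 3.92, 3.45 and 4.07 in WT and 4.80, 4.02 and 6.12 in KO cords, a difference of 1.16, with KO mouse 122972 inside the WT range. Elane was at 3.04, 2.98 and 2.98 in WT and 3.40, 2.88 and 3.48 in KO cords, a difference of 0.25, low in every cord and with overlapping genotypes.

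**Figure D1:**
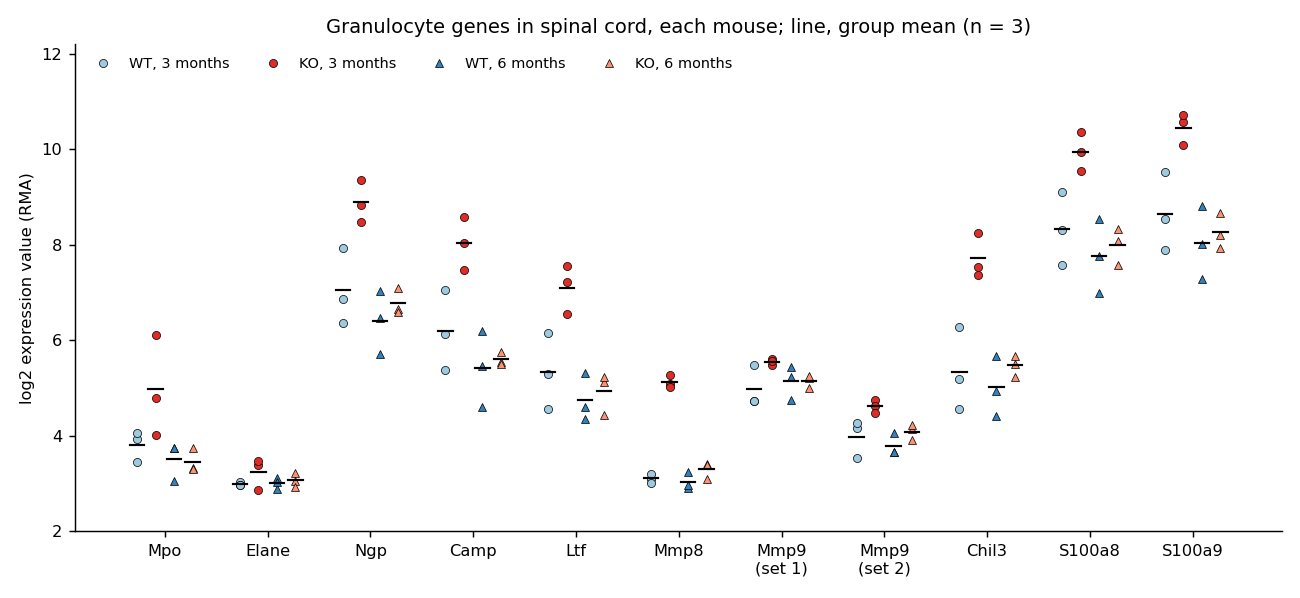
Log2 expression (y axis) of the 11 member probe sets (x axis) in each spinal cord, with circles for mice of 3 months, triangles for mice of 6 months and a line at each group mean of 3 mice. The 3-month KO cords (red) lie above the other 3 groups for all probe sets but those of Elane and, by single mice, Mpo and Mmp9 (set 1, the brighter), and only points of the same probe set can be compared.

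Across the members, 8 of 11 probe sets had every 3-month KO cord above every WT cord, beside 7.92% of all probe sets. In the fit across all probe sets 5 of 11 passed an adjusted p of 0.05, beside 0.311% of all. These counts restate how the genes were chosen and nothing is read from them. Over the 10 genes, with the brightest probe set of each, the median difference was 1.78. Without WT mouse 3, the array rich in muscle transcripts, the median difference was 2.12 and 10 of 11 probe sets were apart, beside 12.9% of all probe sets in that comparison of 3 KO with 2 WT cords. Leaving out any other single mouse gave medians from 1.40 to 2.02. The comparison without WT mouse 3 kept all 3 KO cords, with muscle sums of 622, 1266 and 3307. The WT cords left had 88.9 and 154, so muscle transcripts and genotype are not separated in it. WT mouse 3 was also the WT cord with the highest mean of the members, so leaving it out enlarged the difference.

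In the 6-month mice, which had no part in choosing the genes, the values of KO and WT cords overlapped for every member. S100a9 was at 8.81, 7.28 and 8.01 in WT and 8.66, 8.20 and 7.93 in KO cords. Chil3 was at 5.68, 4.42 and 4.95 in WT and 5.68, 5.50 and 5.24 in KO cords. Ngp was at 7.04, 5.72 and 6.46 in WT and 7.10, 6.66 and 6.60 in KO cords. The genotypes overlapped for each of these genes, with WT mouse 2 the lowest and WT mouse 1 at or near the top. Camp ran from 4.59 to 6.19 in WT and from 5.50 to 5.76 in KO cords, and Ltf from 4.35 to 5.31 in WT and from 4.43 to 5.24 in KO cords. S100a8 ran from 7.58 to 8.32 in KO cords, between WT mouse 2, the lowest cord, and WT mouse 1 at 8.53. The KO values of all 3 genes lay within the WT range. Mmp8 ran from 2.91 to 3.24 in WT and from 3.10 to 3.42 in KO cords, near the array background in both.

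Of the 11 probe sets, 0 passed an adjusted p of 0.05 (limma) at 6 months, where 0.162% of all probe sets did. An unadjusted p under 0.05 (limma) was found for 0 of 11, beside 3.79% of all probe sets. No member had every KO cord above every WT cord, beside 6.11% of all probe sets. The differences ran from -0.05 (Mpo) to 0.46 (Chil3), with a median of 0.23 over the probe sets. The 95% interval of the difference was -0.05 to 0.97 for Chil3, -0.67 to 1.14 for S100a9, -0.21 to 0.98 for Ngp and -0.02 to 0.55 for Mmp8. These intervals use the spread of all 4 tissues. With spinal cord fitted alone, the interval was -0.38 to 1.30 for Chil3 and -0.64 to 1.10 for S100a9, so that a change of up to 2.46-fold in Chil3 lies within what 3 mice a group allow, and Mmp8, with a difference of 0.27, had an interval of 0.03 to 0.50, an unadjusted p of 0.0325 and an adjusted p of 0.623. The difference between the effect at 3 and at 6 months was not tested, because the 3-month effect chose the genes.

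**Figure D2:**
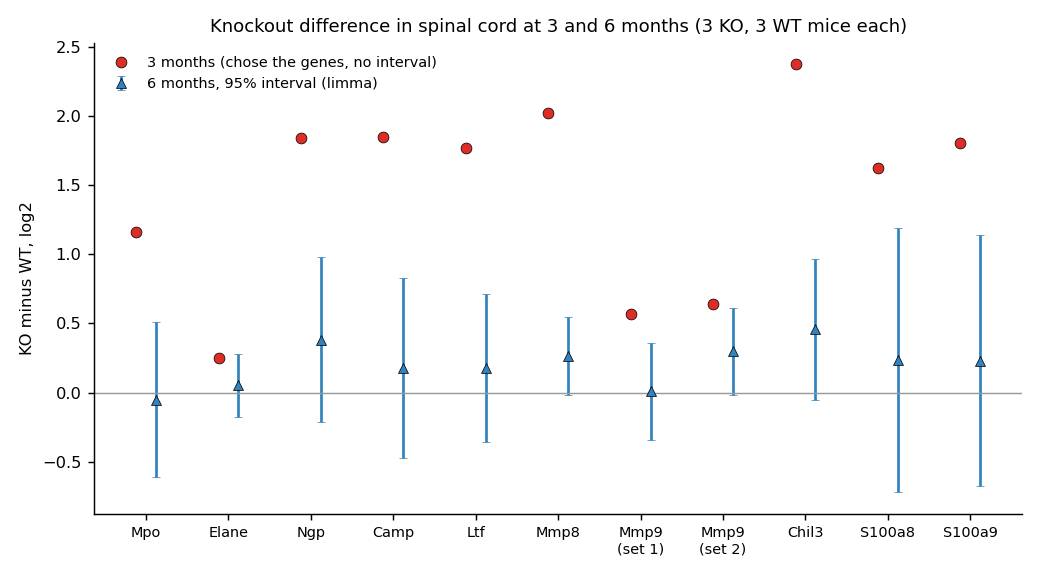
KO minus WT difference (log2, y axis) of each member probe set in spinal cord, with red circles for 3 months and blue triangles with 95% intervals (limma, 3 KO and 3 WT mice) for 6 months. The 3-month differences reach 2.37 and carry no interval because they chose the genes, whereas all 6-month intervals of this fit include 0.

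The 3-month KO cords also stood above the 6-month KO cords. Every 3-month KO value was above every 6-month KO value for 10 of 11 probe sets, all but Elane, beside 5.77% of all probe sets. This comparison shares its 3-month KO arrays with the one that chose the genes. Camp was 5.40-fold, Chil3 4.72-fold and S100a9 4.54-fold higher at the younger age in KO cords. In WT cords the difference of 3 minus 6 months ran from -0.15 (the brighter Mmp9 probe set) to 0.77 (Camp), within the range among the WT mice of 3 months (1.67 for Camp).

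In cerebellum and midbrain the members were low at both ages and in both genotypes, and S100a8 and S100a9 reached above the array medians in single arrays. Array values at the 25th percentile lay between 2.79 and 3.04 and medians between 3.95 and 4.32. Chil3 was at 2.37 to 2.88 in the 24 brain arrays and Ngp at 2.66 to 3.82. S100a9, the brightest member, was at 3.11 to 5.53 in brain, while its lowest spinal cord value was 7.28. In all, 9 of 11 probe sets were higher in each of the 12 spinal cord arrays than in any of the 24 brain arrays, Mpo and Elane being the exceptions, beside 5.25% of all probe sets. Against the 12 liver arrays 8 of 11 were separated in the same way, with Mmp8 as a further exception, beside 22.3% of all probe sets. In liver S100a9 reached 6.83 and S100a8 6.13.

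**Figure D3:**
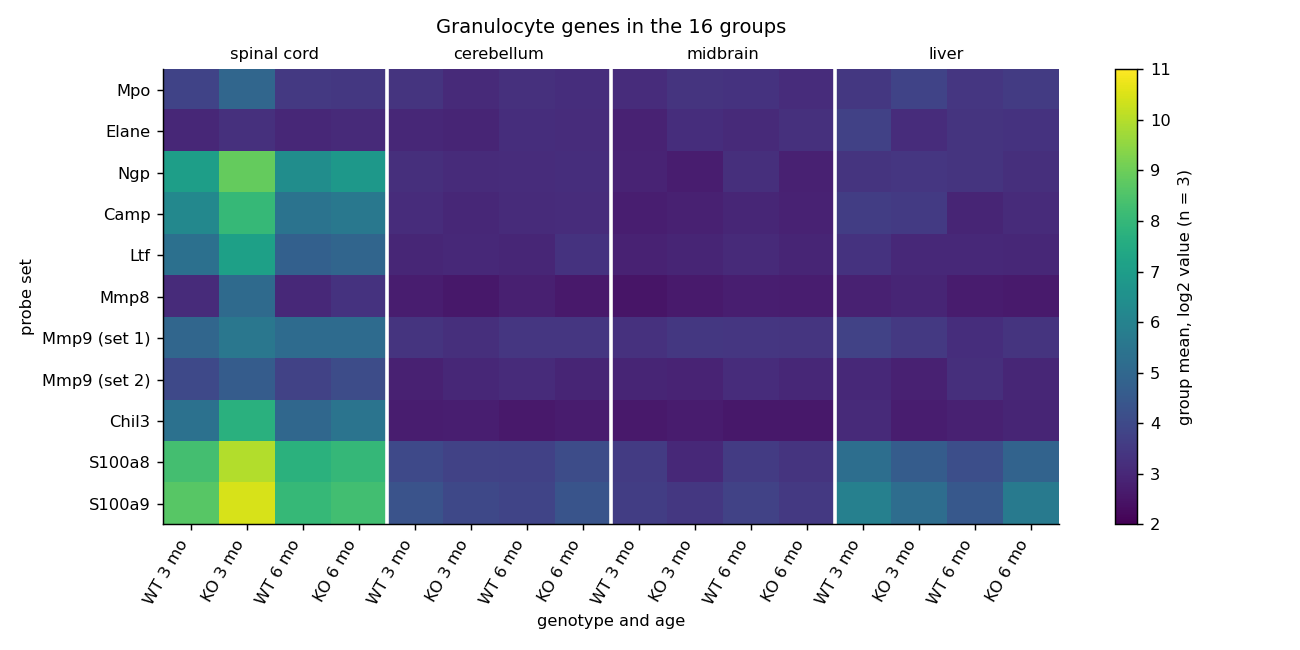
Group means (log2, colour) of the 11 member probe sets (rows) in the 16 groups of 3 mice (columns, by tissue, genotype and age). Rows are to be read across, since probe sets differ in brightness: the spinal cord columns are brighter than those of the other tissues in most rows, with the 3-month KO cords brightest.

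The tissue difference was tested in the 6-month WT mice, which did not enter the choice of the genes. Compared with cerebellum, 8 of 11 probe sets were higher in spinal cord (adjusted p under 0.05), where 21.7% of all probe sets were. Against midbrain it was 8 of 11 beside 10.2%, and against liver 9 of 11 beside 29.6%. S100a9 was at 3.53, 3.49 and 4.57 in cerebellum of WT mice 1, 2 and 3, and higher in spinal cord by 4.17 (log2, 95% interval 3.27 to 5.08, adjusted p = 3.93e-10). The cord of every mouse was far above its own cerebellum. The log2 difference from cerebellum was 4.01 for S100a8, 3.28 for Ngp, 2.41 for Chil3, 2.32 for Camp, 1.78 for Ltf and 1.73 for the brighter Mmp9 probe set. Against midbrain it was 4.27 for S100a9 and 2.43 for Chil3. Because most members lay near the array background in brain, these differences are given as fitted and not as exact folds.

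Mpo, Elane and Mmp8 did not pass the test against cerebellum or midbrain. The differences from cerebellum were 0.27 for Mpo (95% interval -0.29 to 0.83), -0.15 for Elane (-0.38 to 0.07) and 0.26 for Mmp8 (-0.02 to 0.54). Mmp8 passed against liver with a difference of 0.35 (adjusted p = 0.0231), a call lost without any one of the 3 WT mice (adjusted p 0.0709 to 0.0800). Elane was lower in spinal cord than in liver by a difference of -0.35 (adjusted p = 0.00576), lost without WT mouse 2 (adjusted p = 0.181). The dimmer Mmp9 probe set was higher than in midbrain by 0.65 and than in liver by 0.56, and both calls were lost without WT mouse 1 (adjusted p = 0.146 and 0.0986).

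The KO effect was also tested in the other tissues. In cerebellum 0 of 11 members were called at 3 months beside 0.548% of all probe sets, and 0 at 6 months beside 0.182%. In midbrain the count was 0 beside 0.242% at 3 months and 0 beside 0.142% at 6 months. With limma at an unadjusted p under 0.05 the counts were 0 in cerebellum at both ages, beside 7.95% and 4.97% of all probe sets. In midbrain they were 1 at 3 months (Elane) beside 6.53% and 0 at 6 months beside 4.61%. The mean differences of the members ran from -0.52 to 0.49 over these 4 comparisons.

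In liver, 1 of 11 members was called at 3 months beside 9.44% of all probe sets, and 0 at 6 months beside 11.5%. The call was Elane, at 3.81, 3.67 and 3.71 in WT and 3.11, 3.30 and 3.01 in KO livers. All KO values lay below all WT values, by a difference of -0.59 (SE 0.11, adjusted p = 4.15e-04), which did not pass with liver fitted alone (adjusted p = 0.0989). S100a9 was at 6.15, 5.84 and 5.79 in WT and 5.67, 4.58 and 5.38 in KO livers at 3 months, and at 5.04, 4.15 and 4.28 in WT and 6.83, 5.26 and 5.05 in KO livers at 6 months. KO livers were below WT livers at 3 months and above them at 6 months, by 1.22 (adjusted p = 0.0690), without passing the threshold at either age. At 6 months 1 of 11 members (S100a9) had an unadjusted p under 0.05 (limma), beside 25.2% of all probe sets. S100a9 was called without WT mouse 1 (adjusted p = 0.0487) or without KO mouse 122973 (adjusted p = 0.0477).

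Tests of the difference between effects gave few calls. For the KO effect at 6 months in spinal cord against that in cerebellum, 0 of 11 members passed beside 0.0178% of all probe sets, against midbrain 0 beside 0%, and against liver 0 beside 3.06%. By an unadjusted p under 0.05 in limma these counts were 2, 0 and 1, beside 3.01%, 1.43% and 15.9% of all probe sets. Between 3 and 6 months the KO effect on the members did not pass in cerebellum (0 beside 0.0577%) or midbrain (0 beside 0.0444%). In each, 0 members were under an unadjusted p of 0.05, beside 4.85% and 4.78% of all probe sets. In liver it passed for 1 of 11, Elane, beside 7.14%, and 2 of 11 had an unadjusted p under 0.05, beside 21.5% of all probe sets.

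Single mice differed in how much of the whole set they carried. The mean of the 10 genes above the 6-month WT mean of the tissue was 1.88, 1.49 and 2.31 in the 3-month KO cords, and 0.30, -0.16 and 0.96 in the 3-month WT cords. At 6 months it was 0.48, -0.44 and -0.04 in WT cords and 0.37, 0.20 and 0.01 in KO cords. The 3-month WT cord of mouse 3, rich in muscle transcripts, was the highest WT cord. The KO mice 122970, 122972 and 122973 with the high cords were at -0.20, -0.08 and 0.09 in cerebellum where the WT arrays of that age ran from -0.19 to 0.41. They were at -0.11, -0.05 and -0.25 in midbrain, where the WT arrays ran from -0.25 to -0.05, and at 0.22, -0.04 and 0.53 in liver, at or below the highest WT liver (0.55).

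**Figure D4:**
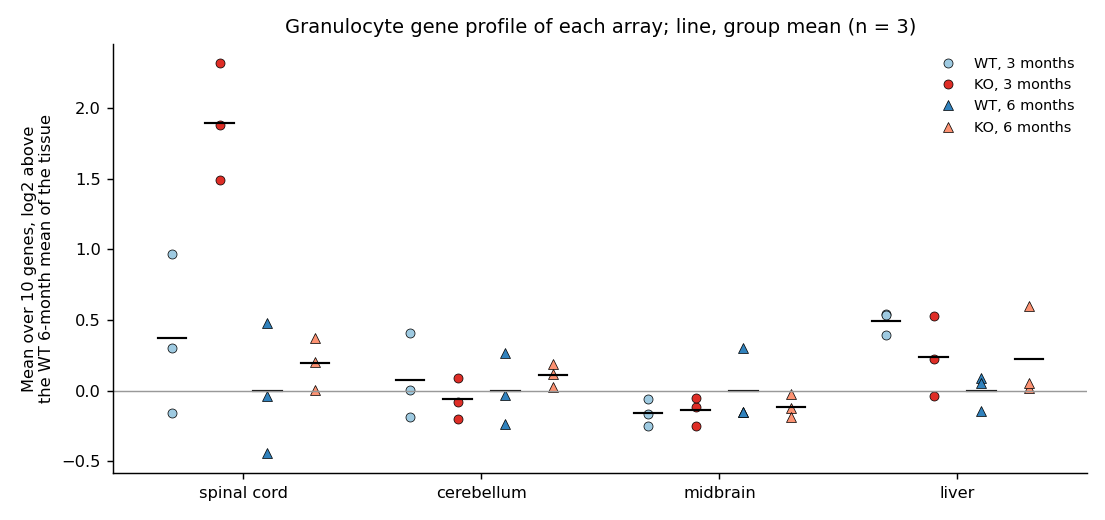
Mean log2 level of the 10 genes in each array above the mean of the 6-month WT arrays of the same tissue (y axis), by tissue (x axis), with circles for 3 months, triangles for 6 months and lines at group means of 3 mice. The 3-month KO spinal cords lie at 1.49 to 2.31, above all other arrays, of which the highest is the cord of WT mouse 3 at 0.96.

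Within groups, 6 genes varied together from cord to cord. After removal of the group means, Ngp, Camp, Ltf, S100a8, S100a9 and Chil3 correlated in all 15 pairs at r of 0.90 to 0.98 (median 0.97) over the 12 spinal cord arrays, as a description of arrays that share normalization. Their pairs with Mpo, Elane, Mmp8 and Mmp9 had r of 0.26 to 0.75. The 6 genes hold the calprotectin pair, Chil3 and 3 of the secondary granule genes.

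Genes that were no members were ranked by their correlation with the mean profile of the set over the 12 cords, among 720 genes with an SD of at least 0.3. The 3-month KO cords weigh heavily in this ranking. The first 12 were Ctse (r 0.98), Chil4 (0.97), Mki67 (0.97), Ifitm6 (0.96), Hemgn (0.96), Mcemp1 (0.95), Slc4a1 (0.95), Fpr2 (0.95), Prtn3 (0.93), Ctsg (0.93), Rhd (0.92) and D17H6S56E-5 (0.92). Chil4 is a close copy of Chil3 and its probe set may read the Chil3 transcript, so its difference of 2.56 at 3 months is uncertain. Prtn3 and Ctsg encode primary granule proteases, Fpr2 a formyl peptide receptor of neutrophils, and Mki67 a protein of dividing cells. Slc4a1, the anion exchanger of red cells, Hemgn and Rhd belong to the erythroid lineage.

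Lists of marker genes gave the place of the set among other cells that a dissected cord could hold. The counts below describe the arrays that chose the members and carry no test, and each is to be read beside the 7.92% of all probe sets with every KO cord above every WT cord. Of 11 further secondary and tertiary granule genes, 8 had all 3-month KO cords above all WT cords, with a median difference of 0.72. Lcn2, the siderophore-binding lipocalin, was at 6.89 to 8.19 in KO and 4.96 to 6.33 in WT cords (3.67-fold). Cybb, the phagocyte oxidase subunit, was 2.22-fold higher, and Hp, haptoglobin, was 2.66-fold higher with overlapping genotypes. Of 7 mature neutrophil genes 3 were apart, namely Fpr2 (difference 1.03), Clec4d (0.49) and the receptor for granulocyte colony-stimulating factor, Csf3r (0.46). Of 8 further primary granule and promyelocyte genes 0 had every KO cord above WT, with a median of 0.07. Ctsg and Prtn3 differed by 0.77 and 0.76 with overlapping genotypes.

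Erythroid genes were among those that differed. Of 13 measured, 6 had every 3-month KO cord above every WT cord, with a median of 0.33. Slc4a1 was at 5.59 to 6.67 in KO and 4.32 to 5.10 in WT cords (2.98-fold), Hemgn at 3.67 to 4.34 and 2.48 to 2.72, and Klf1, the erythroid transcription factor, at 3.82 to 4.05 and 3.04 to 3.60. The haemoglobin gene Hba-a1 differed by -0.04, and the summed linear level of the list was 12875 to 13222 in KO and 12909 to 13572 in WT cords. A linear sum weighs the brightest genes most. The mean log2 value over the 13 genes was 4.67, 4.47 and 4.75 in KO cords. In WT cords it was 4.18, 4.08 and 4.32, so by this mean the genotypes did not overlap. Of 9 cell cycle genes 1 was apart, Mki67 (1.56), and Top2a (0.57) and Ccna2 (0.52) overlapped. Of 6 monocyte genes 3 were apart, with a median of 0.62, F13a1 at 0.79 and Ms4a6b at 0.69, while Plac8 (0.79) overlapped.

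Other marrow lineages differed little by their list medians. A single gene was apart in each of the lists of B cells and their precursors (Ms4a1, 0.35, of 10), megakaryocytes and platelets (Gp6, 0.16, of 9, with Ppbp at 0.38 and overlapping), haematopoietic progenitors (Myb, 0.33, of 9) and T and NK cells (Cd4, 0.31, of 8). The B cell genes Cd79a, Pax5, Vpreb1, Rag1, Rag2 and Dntt had mean values of 2.38 to 2.99 in the 3-month KO cords, near the array background. Bone markers were apart for 0 of 10, with a difference of 0.77 and overlapping genotypes for Bglap (osteocalcin). Bglap was at 3.68 to 6.10 in KO and 3.47 to 4.26 in WT cords. The summed linear level of the bone list was 254, 263 and 370 in KO mice 122970, 122972 and 122973, and 234 to 283 in WT cords. KO mouse 122973 also had the highest granulocyte profile, 2.31. Among the 3-month KO cords it had the highest sums of muscle (3307), meningeal (2591) and Schwann cell genes (4482) as well. It did not have the highest sums of haematopoietic progenitor, T and NK cell or microglial genes. A link between the bone and granulocyte genes was not tested. Cartilage markers were apart for 1 of 9 (Ucma, 0.29). The largest cartilage difference, -0.66 for Comp, overlapped between genotypes. Of 7 microglial genes 1 was higher in every KO cord (Fcrls, 0.37) and 3 were lower, among them P2ry12 (-0.16) and Aif1 (-0.25). The share of all probe sets lower in every KO cord was not computed, so nothing is read from the count of 3. Meningeal genes (0 of 8, median 0.12) and Schwann cell genes (0 of 3, median 0.12) were not apart, the largest differences being 0.47 for Slc6a13 and 0.87 for Pmp2.

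Skeletal muscle genes had a median difference of 1.07 at 3 months, but 0 of 10 were apart, since WT mouse 3 had the most (Acta1 at 3.23 to 11.64 in WT and 7.68 to 10.03 in KO cords). At 6 months KO mouse 122970 had a muscle sum of 1508, against 93.6 to 241 in the other 5 cords, and its granulocyte profile of 0.37 lay below that of WT mouse 1 (0.48, muscle sum 135). The part of marrow, blood, muscle or dissection in the 3-month difference was not tested.

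**Figure D5:**
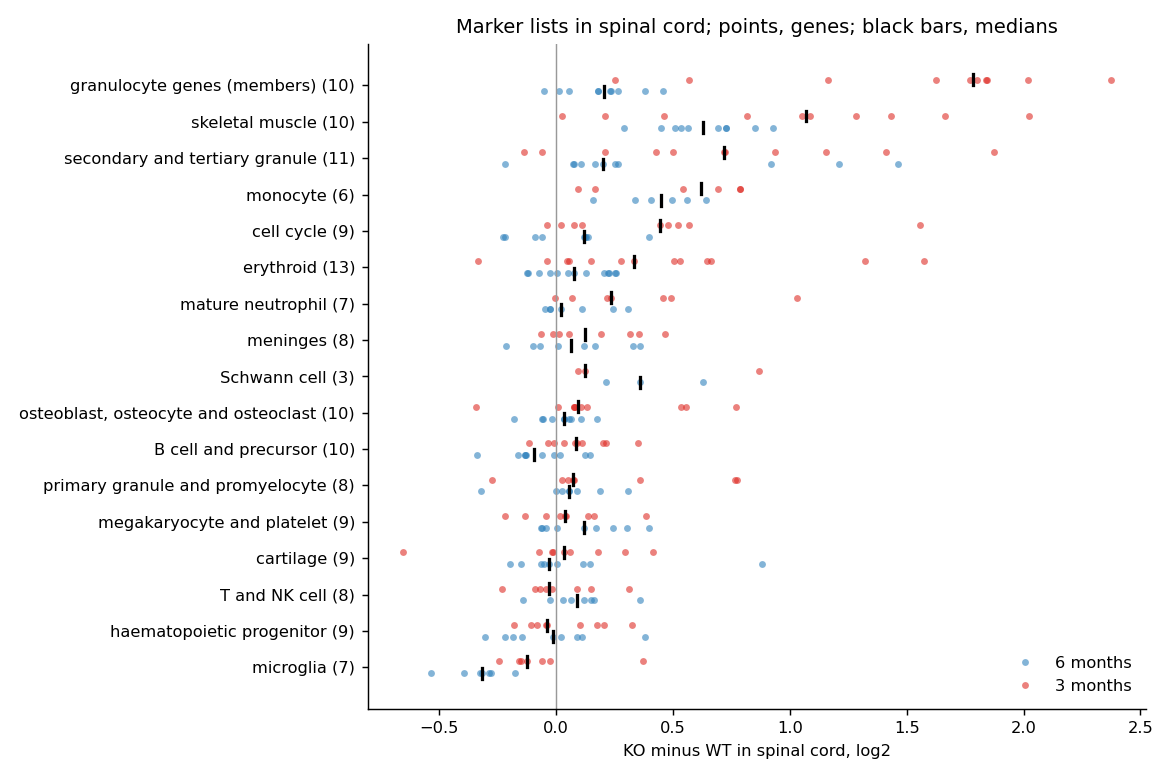
KO minus WT difference in spinal cord (log2, x axis) of each gene (point) in the member set and 16 marker lists (y axis, with the number of genes), red for 3 months and blue for 6 months, with black bars at the medians. At 3 months the medians are 1.78 for the member genes, 1.07 for skeletal muscle and 0.72 for other secondary and tertiary granule genes. Monocyte, cell cycle and erythroid genes have medians of 0.62, 0.45 and 0.33. The lists of primary granule genes, B cells, megakaryocytes, progenitors, bone and cartilage have medians between -0.04 and 0.09.

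At 6 months the related lists gave 1 call in spinal cord. Pglyrp1, a peptidoglycan recognition protein of secondary granules, was higher in KO cords by 0.92 (adjusted p = 0.0128, limma), 1 of 11 genes of its list. Lcn2 differed by 1.46 and Hp by 1.21 with every KO cord above WT, and neither passed the test. Among the tissue markers, the liver transcript Alb was higher in 6-month KO cords by 2.25 (adjusted p = 0.00317). The summed linear level of the 4 liver markers was 104, 99.6 and 40.0 in 6-month KO cords and 30.3 to 35.4 in WT cords. Cyp2e1 was above WT in every KO cord (0.91), while Apoa1 and Ttr overlapped. The part of liver transcripts in the Hp difference was not tested. The lists of primary granule, mature neutrophil, erythroid, monocyte and cell cycle genes had 0 calls in 6-month spinal cord (limma). Of these lists, 3 monocyte genes and none of the others had an unadjusted p under 0.05, beside 3.79% of all probe sets. For the monocyte list 3 of 6 genes had every KO cord above every WT cord, beside 6.11% of all probe sets, with a median of 0.45. The same held for 4 of 11 secondary and tertiary granule genes (median 0.20), 2 of 7 mature neutrophil genes (0.02) and 2 of 13 erythroid genes (0.08). It held for 0 of 8 primary granule and 0 of 9 cell cycle genes. Of 7 microglial genes 3 had every KO cord below every WT cord, with a median of -0.32. The share of all probe sets lower in every KO cord was not computed, so nothing is read from this count of 3. Some list genes were also called in KO liver (adjusted p under 0.05, limma). Lcn2 (2.29) and Fpr2 (1.23) were higher there at 6 months, beside 11.5% of all probe sets called. Mki67 (1.34) and F13a1 (0.74) were higher in liver at 3 months, beside 9.44%. Of 9 cell cycle genes in liver at 3 months, 3 were higher and 1 lower.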

How the data were processed

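Spinal cord, cerebellum, midbrain and liver of 3 KO and 3 WT mice per age were hybridised to 48 arrays. The log2 expression values were deposited by the authors after Robust Multichip Average in R 2.14.0 (background correction, quantile normalization, summarization), and no scanner intensities were used here. Quantile normalization gives the probe signals of all arrays 1 distribution, so a value is relative to its array. Of 45141 probe sets, 104 controls were left out. By the platform annotation 28898 probe sets had 1 symbol, 551 had several and 15588 had none. Means of the 16 groups were fitted to every probe set with limma 3.58.1 and statmod 1.5.0 in R 4.3.3 with empirical Bayes (prior degrees of freedom 4.97), and p-values were adjusted by Benjamini-Hochberg over 45037 probe sets per comparison, with calls at an adjusted p under 0.05. The fit was tested on simulated data with known changes.

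The members, the marker lists (152 of 182 genes matched, 1 probe set per gene, the brightest) and the tests were chosen with earlier results of these data known. The text names all members, from the lists genes among the 3 with the largest 3-month difference in spinal cord, and the 12 genes most like the members. Hba-a1, Pglyrp1, Alb and the B cell genes at array background were named after their values were seen. Mouse numbers recur at both ages, which were treated as separate mice. Arrays of 1 mouse share a number across tissues by the labels, and the consensus correlation of the mouse was 0.03. The labels number the mice and say no more of their origin, so p-values measure the spread between these mice. The number of arrays limits the precision. Promoters came from RefSeq (GRCm38.p6).

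The alternatives left out each mouse in turn, used the mouse as a replicate block, fitted the tissues separately, dropped dim probe sets, normalized again by quantiles inside each tissue, changed the prior to a trended and robust one, took all probe sets of a gene in place of the brightest, or called at an adjusted p under 0.01. Intervals with spinal cord fitted alone were added after seeing the data.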

Additional observations from a re-analysis of the deposited data

Results flagged for a closer look

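The KO effect on Elane in liver differed between the ages by 0.55 (6 minus 3 months, adjusted p = 0.0268, limma), with KO livers below WT livers in all 3 mice at 3 months and overlapping at 6 months.

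The KO effect on S100a9 in liver ran in opposite directions at the 2 ages, 1.94 apart (6 minus 3 months). Every KO liver lay below every WT liver at 3 months and above every WT liver at 6 months. At 6 months the nearest values were almost equal, 5.05 in KO and 5.04 in WT livers. It was marked by direction alone, and the test of the difference did not pass (adjusted p = 0.0534, limma). Any cause was not tested.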

How the results depend on the processing

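In spinal cord at 6 months the count of 0 called members was the same under every alternative run. With the mouse as a replicate block 0 of 11 were called there, and the counts of the other comparisons tested were unchanged. The count with the block in spinal cord at 3 months was not taken, because that comparison chose the genes. Leaving out probe sets dim over all 48 arrays kept only S100a8 and S100a9, which passed through their spinal cord values, so the counts of 2, 2 and 2 higher in spinal cord than in cerebellum, midbrain and liver were fixed by the filter and say nothing of stability. The liver call at 3 months went to 0 with dim probe sets left out and to 0 with each tissue fitted alone. Leaving out single mice gave 0 to 1 called members in liver at 6 months and a median spinal cord difference at 3 months of 1.40 to 2.12. Leaving out single WT mice gave differences of -0.12 to 0.011 for Elane against midbrain and of -0.21 to 0.26 for Mpo against liver, both uncalled, so their sign depended on the mouse left out. With spinal cord fitted alone the 6-month intervals of S100a8, S100a9 and Mmp8 were narrower than those from all tissues together. Those of all other member probe sets were wider. In spinal cord 7 of 11 probe sets had means above that limit, while Elane, Mpo, Mmp8 and the dimmer Mmp9 probe set were measured at low signal, and 3 mice per group limit the precision.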
